A study of Mus musculus with 60 samples.

Results

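The comparison is between 3 arrays of R1 mouse embryonic stem cells exposed to (-)-d-penicillamine and 3 arrays of the same cells exposed to the solvent alone, 6 of the 60 arrays in the series. Membership follows the treatment label of each array, and all probe sets annotated with 1 gene symbol were examined, 21789 of the 35556 on the array, standing for 19938 symbols. The R1 cells, a long-used line, were grown on feeder cells, depleted of feeders and exposed for 6 h while attached and undifferentiated. The penicillamine cells received 1 mM in 0.1% DMSO and the control cells received 0.1% DMSO. Per the labels each compound was used at the lowest of its 10% inhibitory concentration in a viability assay, 1 mM or its solubility limit. The other 18 groups of 3 arrays received 1 compound each. The labels class penicillamine with 9 of them as a teratogen and call the other 9 non-teratogens. Of the teratogens, VPA, topiramate, fluconazole and dimethadione were also given at 1 mM. So were the non-teratogens sulfasalazine, paracetamol, hydrochlorothiazide and chlorthalidone. Lower doses were used for the teratogens methotrexate, thalidomide, dexamethasone, azacytidine and retinoic acid. The same held for the non-teratogens ondansetron, loratadine, clozapine, metoclopramide and glybenclamide. The labels speak of triplicates without saying that these came from separate cultures. The p-values therefore measure a spread between arrays, pooled over all 20 groups, which may be technical.

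Penicillamine carries a free thiol and an amino group that together hold copper, and it is used to remove copper from the body in Wilson disease and to keep cystine in solution in cystinuria. Cells sense surplus zinc and copper through the transcription factor MTF1, which drives the metallothioneins, small cysteine-rich proteins that bind metal, and the zinc exporter SLC30A1. They sense electrophiles and oxidants through KEAP1, whose cysteines keep the transcription factor NRF2 low. When those cysteines react, NRF2 accumulates and raises genes of glutathione synthesis, quinone reduction and heme breakdown, among them heme oxygenase 1 (Hmox1).

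The signals are log2 values, so a difference of 1 is a doubling. The array medians were 7.64, 7.67 and 7.63 with DMSO and 7.64, 7.79 and 7.64 with penicillamine, and the value of penicillamine array 2 was the highest of all 60 arrays. Measured against the mean of the DMSO arrays over all probe sets, the median difference was -0.0124 on penicillamine array 1, 0.163 on array 2 and -0.0036 on array 3. Array 2 held the highest of the 6 values in 65.7% of probe sets as deposited and in 32.0% after quantile normalisation, which gives every array the same distribution of values. As deposited, it differed from penicillamine arrays 1 and 3 by a root mean square of 0.233 and 0.228. The median for pairs of arrays within a group was 0.133, so the pooled SE may understate the spread of the penicillamine arrays. The median over all probe sets of the group difference, penicillamine minus DMSO, was 0.047 as deposited, 0.003 after quantile normalisation and -0.0076 without array 2. Results are therefore given as deposited, after quantile normalisation and, where it matters, without array 2. Leaving out an array lowers the precision for every probe set. For list counts at an unadjusted p under 0.05 without array 2, the share of all probe sets is not given. Those counts have no background, and a drop in them cannot be read on its own.

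**Figure D1:**
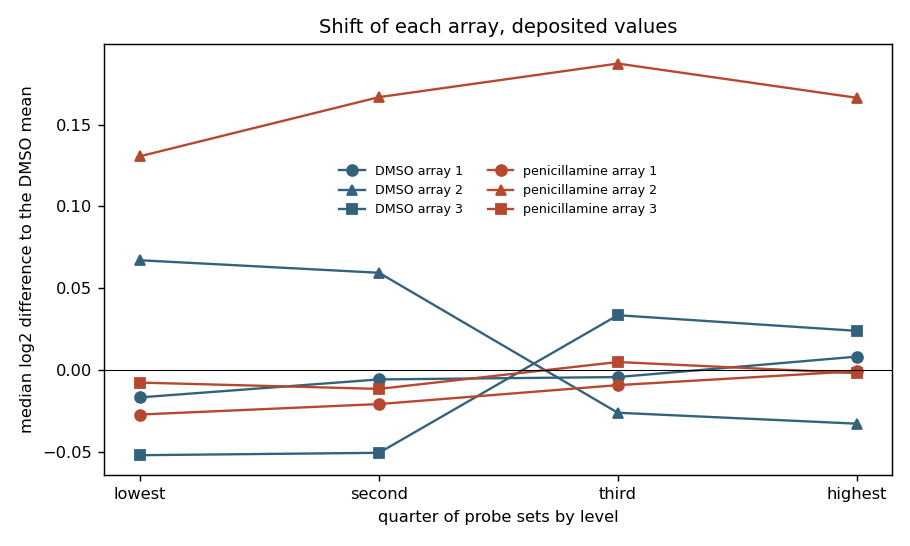
Median log2 difference of each of the 6 arrays to the mean of the 3 DMSO arrays, in 4 equal bins of probe sets ordered by level (deposited values). Penicillamine array 2 lies between 0.131 and 0.187 above the DMSO mean in every bin, above the other 5 arrays.

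No probe set passed an adjusted p of 0.05 against DMSO in the deposited values (0 of 21789, limma with Benjamini-Hochberg adjustment, background 0%), while 1850 had an unadjusted p under 0.05 (8.49%). Of these, 1634 were higher with penicillamine (7.50%) and 216 lower (0.991%). After quantile normalisation 1348 had such a p (6.19%). The split was 634 higher (2.91%) and 714 lower (3.28%), and 2 probe sets passed the adjusted threshold (0.00918%), those of Hmox1 and Mt2, which both fell. The 3 penicillamine arrays lay above all 3 DMSO arrays in 6.10% of probe sets and below in 1.54%, and after quantile normalisation in 5.17% and 4.91%. Leaving out penicillamine array 1 gave 24 calls, 14 higher and 10 lower. Leaving out array 2 gave 1 call, Hmox1, and leaving out array 3 or any DMSO array gave none. A model of the 6 arrays alone called 1 probe set, Rnu5g. Among the 13767 probe sets with no symbol or several, 0 passed and 8.32% had an unadjusted p under 0.05.

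Hmox1, the enzyme that opens the heme ring and releases iron, had the smallest p of all probe sets. Its signal was 10.99, 10.85 and 10.99 on the DMSO arrays and 10.51, 10.79 and 10.59 on the penicillamine arrays. All 3 penicillamine arrays lay below all 3 DMSO arrays, and array 2 was the closest to them. The difference was -0.31 ± 0.065 (SE; limma, unadjusted p = 1.30e-05, adjusted p = 0.284). After quantile normalisation the arrays read 10.98, 10.90 and 10.97 with DMSO and 10.51, 10.65 and 10.58 with penicillamine, a fall of 0.37 ± 0.057 (limma, adjusted p = 0.00143). With that scaling all 3 penicillamine arrays were close to each other and clear of DMSO. Without array 2 the deposited difference was -0.40 (limma, adjusted p = 0.00918). In bulk RNA, fewer cells of a type that makes a transcript and less of it in each cell cannot be told apart.

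Mt2, a metallothionein that binds zinc and copper, read 13.61, 13.55 and 13.63 with DMSO and 13.39, 13.40 and 13.30 with penicillamine. The groups did not overlap, and the 3 penicillamine arrays were close to each other. The difference was -0.23 ± 0.053 as deposited (limma, adjusted p = 0.301) and -0.28 ± 0.047 after quantile normalisation (limma, adjusted p = 0.00341). Mt1, the neighbouring metallothionein, read 11.93, 11.92 and 12.01 with DMSO and 11.65, 11.93 and 11.58 with penicillamine. Arrays 1 and 3 were lower and array 2 lay inside the DMSO range. Its difference of -0.24 ± 0.083 did not pass as deposited (limma, adjusted p = 0.437) or after quantile normalisation, where it was -0.27 ± 0.079 (limma, adjusted p = 0.471).

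**Figure D2:**
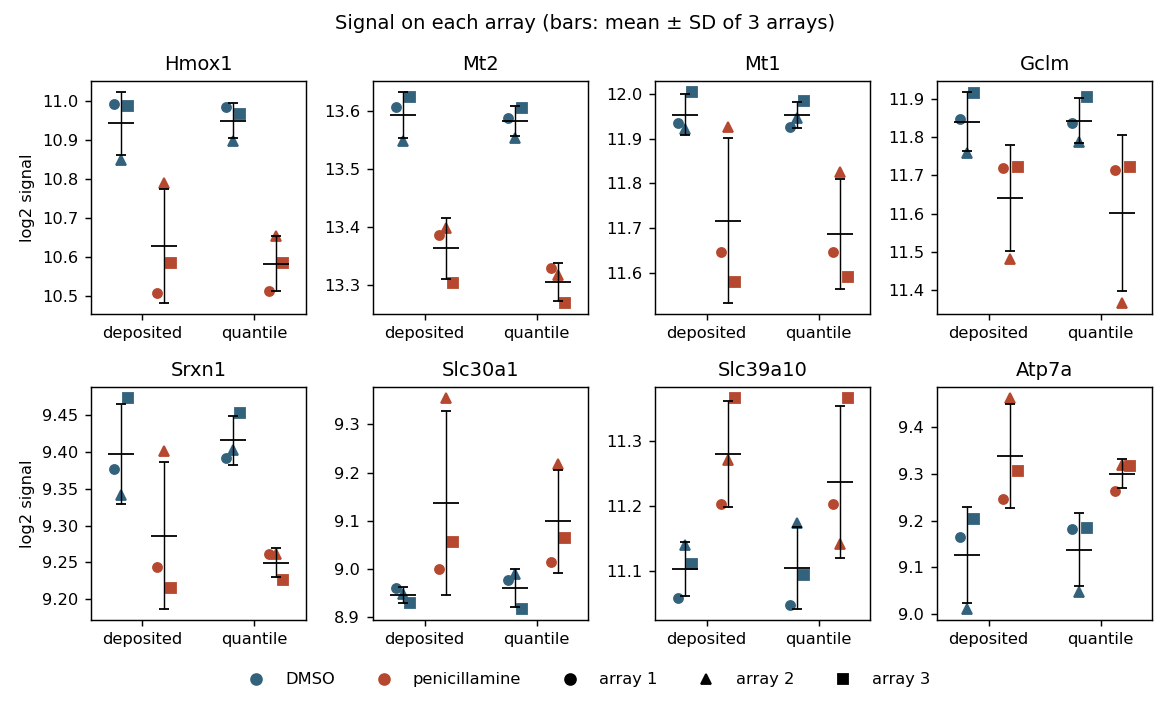
Log2 signal of 8 genes on each array as deposited and after quantile normalisation (points: arrays; horizontal line and bars: mean ± SD of 3 arrays). For Hmox1 and Mt2 every penicillamine array lies below every DMSO array on both scales, while Mt1 overlaps as deposited through array 2.

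The Mt2 and Mt1 starts lie 6.47 kb apart on the same strand of chromosome 8 in RefSeq (GRCm38.p6). Their promoters, with that of Slc30a1, another MTF1 target that pointed the other way, are shown because they carry the core of the metal response element to which MTF1 binds. Capitals mark the cores TGCGCNC and TGCACNC, searched on both strands, in the 250 bases before and 30 bases from the start on.
Mt2, chr8:94172368-94172647, plus strand: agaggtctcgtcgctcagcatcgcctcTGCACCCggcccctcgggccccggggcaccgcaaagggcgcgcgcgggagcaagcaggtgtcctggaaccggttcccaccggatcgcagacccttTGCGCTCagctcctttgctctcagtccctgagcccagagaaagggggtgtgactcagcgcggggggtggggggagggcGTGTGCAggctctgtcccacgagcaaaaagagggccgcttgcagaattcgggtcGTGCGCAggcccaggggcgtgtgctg
Mt1, chr8:94178839-94179118, plus strand: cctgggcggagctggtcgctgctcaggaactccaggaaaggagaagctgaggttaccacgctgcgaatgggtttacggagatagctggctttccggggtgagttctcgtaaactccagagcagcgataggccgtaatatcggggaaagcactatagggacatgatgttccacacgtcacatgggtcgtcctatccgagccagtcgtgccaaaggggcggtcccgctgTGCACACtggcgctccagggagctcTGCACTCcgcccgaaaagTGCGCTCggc
Slc30a1, chr1:191906531-191906810, plus strand: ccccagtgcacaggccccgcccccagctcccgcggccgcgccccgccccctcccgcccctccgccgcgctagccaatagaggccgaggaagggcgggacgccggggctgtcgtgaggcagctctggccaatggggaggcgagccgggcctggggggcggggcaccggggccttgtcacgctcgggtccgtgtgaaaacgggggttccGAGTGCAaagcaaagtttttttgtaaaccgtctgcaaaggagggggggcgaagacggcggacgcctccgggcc
The Mt2 window holds 4 cores, the Mt1 window 3 and the Slc30a1 window 1. The Mt1 cores at window bases 253 to 259 and 271 to 277 lie past the start, as does the Mt2 core at 255 to 261. At least 1 of these cores occurs in 24.1% of the 32851 promoter windows of that length, and 3 or more occur in 1.73%. The antioxidant response element core TGACNNNGC, to which NRF2 binds with a partner, was found once in the Mt2 and once in the Slc30a1 window and not in that of Mt1, against 11.5% of all windows. Further genes were searched in the same way. Gclm held 2 metal cores and 1 antioxidant core, and Srxn1 held 1 metal core and 0 antioxidant cores. Of the 3 Txnrd1 windows 1 held an antioxidant core and none a metal core. Ftl1, Nqo1, Slc7a11 and Slc39a10 held neither kind. A match is a description of the letters and not evidence of binding.

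Other genes of metal handling were measured beside these. Slc30a1, which exports zinc, read 8.96, 8.95 and 8.93 with DMSO and 9.00, 9.36 and 9.06 with penicillamine. All 3 penicillamine arrays were above the DMSO arrays, with array 2 far above the others. The difference of 0.19 ± 0.068 (limma, adjusted p = 0.441) dropped to 0.081 without array 2. Slc39a10, a zinc importer of the plasma membrane, read 11.06, 11.14 and 11.11 with DMSO and 11.20, 11.27 and 11.37 with penicillamine. Its groups did not overlap either, and here array 3 was the highest (difference 0.18 ± 0.059, limma, adjusted p = 0.424). After quantile normalisation the Slc39a10 value of array 2 (11.14) lay inside the DMSO range, and the difference was 0.13 (limma, adjusted p = 0.732). Slc39a9, a zinc transporter of the Golgi, was 0.21 higher, with array 1 inside the DMSO range. Of 20 zinc genes these 3 had an unadjusted p under 0.05, all higher (15% against 7.50% of all probe sets), and without array 2 a single one did. The list median was 0.033 as deposited and -0.020 after quantile normalisation, both close to the medians of all genes, 0.046 and 0.0023.

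Atp7a, the copper exporter mutated in Menkes disease, read 9.17, 9.01 and 9.20 with DMSO and 9.25, 9.46 and 9.31 with penicillamine. The groups did not overlap, by a narrow margin on array 1 (difference 0.21 ± 0.086, limma, adjusted p = 0.502). Atp7b, the exporter mutated in Wilson disease, differed by 0.06, the importer Slc31a1 by 0.16, the superoxide dismutase chaperone Ccs by 0.08 and Sod1 itself by 0.06, each with an unadjusted p above 0.05. Of 16 genes of copper transport 1 was higher (6.25%, background 7.50%) and 2 lower (12.5%, background 0.991%) at an unadjusted p under 0.05, the lower ones being Mt1 and Mt2. Of 22 genes for enzymes that carry copper, Cox7a2 (0.15) and Moxd1 (0.14) were higher at that level and none lower, and after quantile normalisation 0 of 22 were. Lox, the copper enzyme that crosslinks collagen, differed by 0.08 and Mtf1 by -0.02. Mt3, a metallothionein of neurons, differed by 0.04 as deposited and by -0.01 after quantile normalisation.

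The list of NRF2 targets, 25 measured genes, leaned to lower values. Against DMSO 4 were lower at an unadjusted p under 0.05 (16.0%, against 0.991% of all probe sets) and 1, Taldo1, was higher (4%, against 7.50%). The list median was -0.042, against 0.046 for all genes. After quantile normalisation 7 were lower (28%, background 3.28%) and 1 higher (4%, background 2.91%), with a median of -0.079. Without array 2 it was 4 lower and 0 higher, with no background share given. The median was then -0.063, against -0.0076 for all probe sets. Hmox1 was the 1 member of the list that passed the adjusted threshold, on both of those settings. These counts describe the list and are no test of it.

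Glutathione synthesis starts with glutamate-cysteine ligase, whose modifier subunit is Gclm and catalytic subunit Gclc. Gclm read 11.85, 11.76 and 11.91 with DMSO and 11.72, 11.48 and 11.72 with penicillamine. The penicillamine arrays were all lower, with array 2 the lowest (difference -0.20 ± 0.064, limma, adjusted p = 0.424), and without that array the difference was -0.12. Gclc read 11.06, 11.07 and 10.995 with DMSO and 10.90, 10.81 and 10.88 with penicillamine, again without overlap (difference -0.18 ± 0.088, unadjusted p = 0.0498 by limma). The ferritin light chain gene Ftl1, which stores iron, read 13.52, 13.53 and 13.55 against 13.43, 13.34 and 13.48. That gap of -0.12 ± 0.043 was small but without overlap (unadjusted p = 0.00678 by limma), whereas the heavy chain gene Fth1 differed by -0.002.

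Srxn1, which repairs oxidised peroxiredoxins, read 9.38, 9.34 and 9.47 with DMSO and 9.24, 9.40 and 9.22 with penicillamine. Array 2 fell inside the DMSO range as deposited but joined the other 2 after quantile normalisation, where the difference went from -0.11 to -0.17 (unadjusted p = 0.000541 by limma). Nqo1, a quinone reductase, read 9.52, 9.45 and 9.63 with DMSO and 9.32, 9.53 and 9.43 with penicillamine. Again array 2 lay inside the DMSO range and the other 2 below it. Taldo1, transaldolase of the pentose phosphate pathway, was the exception in direction. It read 9.82, 9.64 and 9.90 with DMSO and 9.86, 10.30 and 9.87 with penicillamine. Arrays 1 and 3 lay inside the DMSO range there, and array 2 was far above it (difference 0.22 ± 0.076, unadjusted p = 0.00507 by limma).

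**Figure D3:**
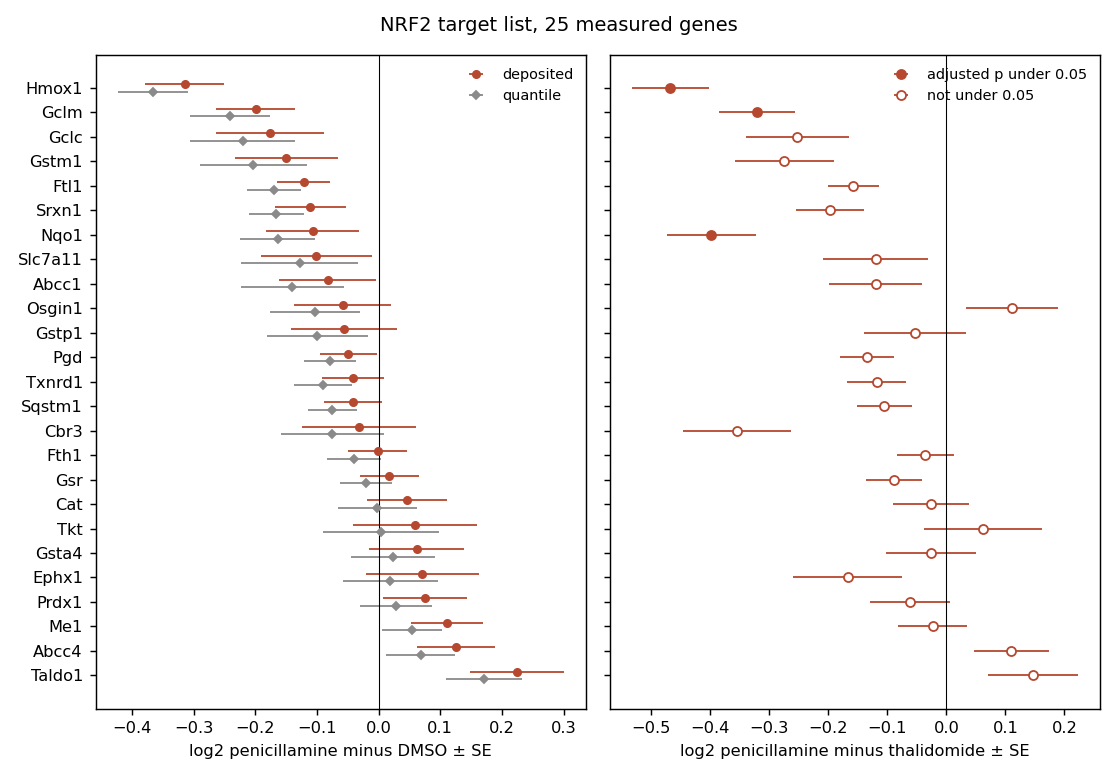
Log2 difference ± SE for the 25 measured NRF2 targets, penicillamine minus DMSO as deposited (red) and after quantile normalisation (grey) on the left, and penicillamine minus thalidomide (deposited; filled where the adjusted p is under 0.05) on the right. Hmox1 and Gclm are lowest on the left, and Hmox1, Gclm and Nqo1 are the 3 filled points on the right.

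Genes of cysteine and glutathione handling, 24 in all, had 1 member higher (Slc1a5, 0.13) and 2 lower (Gclm and Gclc) against DMSO at an unadjusted p under 0.05 (4.17% and 8.33%, against 7.50% and 0.991% of all probe sets), and 0 in either direction without array 2. Slc7a11, the cystine importer, was faint and differed by -0.10 with a p of 0.267. Of 17 thioredoxin and glutaredoxin genes 3 were higher (17.6%, background 7.50%): Glrx5, which passes on iron-sulfur clusters, by 0.22, Prdx2 by 0.13 and Txnip, an inhibitor of thioredoxin, by 0.12. Without array 2, 1 of the 17 was higher and 1 lower. Of 15 iron genes Hmox1 and Ftl1 were lower (13.3%, background 0.991%) and none higher, and the transferrin receptor Tfrc differed by 0.11 (unadjusted p = 0.0851 by limma). The lists share members, so their counts are not independent. Hmox1 and Ftl1 are also in the NRF2 list, Hmox1 in the heat shock list too, and Gclm in both the NRF2 and the cysteine lists. Penicillamine is also known as a vitamin B6 antagonist. Of 32 genes for enzymes that use, make or break down pyridoxal phosphate, 3 were higher and 0 lower against DMSO (9.38% higher, near the background of 7.50%). They were led by the pyridoxal phosphate phosphatase Pdxp (0.21) and the ornithine aminotransferase Oat (0.19). The pyridoxal kinase Pdxk differed by 0.12 (unadjusted p = 0.103 by limma), and without array 2 the list had 0 higher and 1 lower.

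A second reference was the mean of the other 18 compounds, which leaves the DMSO arrays out. It was joined by the mean of the 8 other compounds given at 1 mM, and all comparisons share the 3 penicillamine arrays. Against the 18 compounds 2503 probe sets passed (11.5%), 1972 higher and 531 lower. After quantile normalisation the number was 2094 (9.61%), 879 higher (4.03%) and 1215 lower (5.58%), so the share of higher calls went from 78.8% to 42.0%. Without array 2 it was 545, 148 higher and 397 lower. Against the 8 compounds at 1 mM 2505 passed (11.5%), 2002 higher (9.19%) and 503 lower (2.31%), and 2283 after quantile normalisation (10.5%), 977 higher (4.48%) and 1306 lower (5.99%). The share of higher calls went from 79.9% to 42.8%. Without array 2 that count was 685. The calls against the 18 compounds that held in the same direction in all 3 settings were 134 of the 1972 higher ones (6.8%) and 262 of the 531 lower ones (49.3%). Against the 8 compounds they were 242 and 264.

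Hmox1, Mt2 and Mt1 were lowest with penicillamine among the 20 groups. The mean for Hmox1 was 10.63 ± 0.15 (SD, n = 3), followed by retinoic acid at 10.84 ± 0.18 and DMSO at 10.94 ± 0.08, with glybenclamide highest at 11.55 ± 0.06. Of the 57 other arrays 56 lay above all 3 penicillamine arrays. The Mt2 mean was 13.36 ± 0.05, followed by retinoic acid at 13.55 ± 0.13, with loratadine highest at 13.85 ± 0.03. For Mt2 all 57 other arrays lay above, which held for 3 probe sets in all (0.0138%), the others being Dnase2a and Eif5a. The Mt1 mean was 11.72 ± 0.18 and overlapped with methotrexate at 11.91 ± 0.19. Against the mean of the 18 compounds Hmox1 was lower by 0.56 (limma, adjusted p = 1.61e-11), Mt1 by 0.44 (adjusted p = 3.83e-06) and Mt2 by 0.30 (adjusted p = 8.72e-07).

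**Figure D4:**
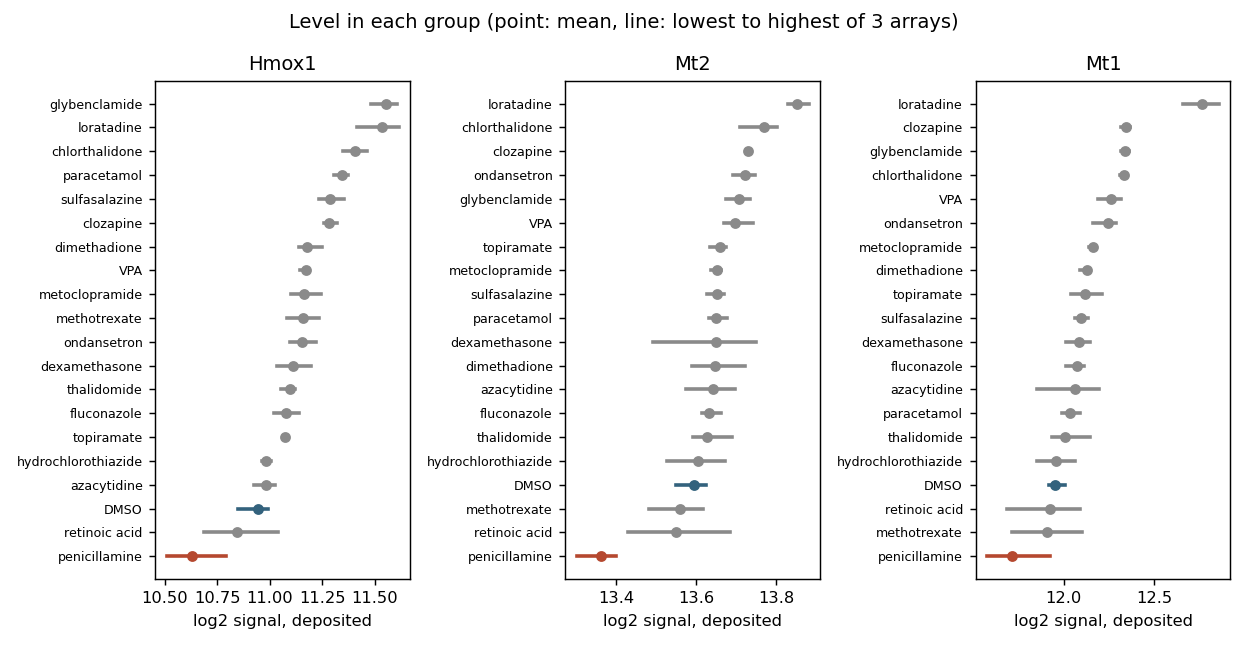
Deposited log2 signal of Hmox1, Mt2 and Mt1 in each of the 20 groups, ordered by mean (points: means; lines: lowest to highest of 3 arrays). Penicillamine is lowest in all 3 panels, its Mt2 line is clear of every other line, and its Mt1 line overlaps others.

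Against the 18 compounds 10 of the 25 NRF2 targets passed as lower and 1 as higher (background 2.44% lower and 9.05% higher), with a list median of -0.124 against 0.054 for all genes. The counts were 13 and 1 after quantile normalisation (background 5.58% lower and 4.03% higher). Without array 2 they were 7 and 0, against 397 and 148 of all 21789 probe sets. Srxn1 was lower by 0.31 (limma, adjusted p = 3.22e-06), Gstm1 by 0.32 (adjusted p = 0.000478) and Gclm by 0.24 (adjusted p = 0.000468). Against DMSO, Gstm1 differed by -0.15 (unadjusted p = 0.0790 by limma). Penicillamine had the lowest mean of the 20 groups for 6 of the 25 genes (24.0%), and for 1.6% of all probe sets. Against the 8 compounds at 1 mM the counts were 9 lower and 2 higher (background 2.31% lower and 9.19% higher). Of the 24 cysteine and glutathione genes 7 passed as lower (29.2%, background 2.44%) and 0 as higher, and 3 as lower without array 2. They were led by Chac1, which breaks down glutathione, at -0.57 (adjusted p = 1.19e-08), and by Slc1a4, a transporter of neutral amino acids, at -0.41 (adjusted p = 9.47e-08). Against DMSO, Chac1 differed by -0.05 and Slc1a4 by -0.08 (unadjusted p = 0.550 and 0.235 by limma).

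Targets of ATF4, the factor of the amino acid response, were counted against both references. Against DMSO 3 of 28 were higher at an unadjusted p under 0.05 (10.7%, background 7.50%) and 0 lower, and without array 2 it was 1 higher and 1 lower. Atf3 read 8.16, 8.28 and 8.31 with DMSO and 8.37, 8.80 and 8.45 with penicillamine. Its groups did not overlap and array 2 was the highest (difference 0.29 ± 0.081, limma, unadjusted p = 0.000865). Stc2 read 8.34, 8.34 and 8.41 against 8.52, 8.53 and 8.50, a difference of 0.16 with very even arrays. Against the 18 compounds 10 of the 28 passed as lower (35.7%, background 2.44%) and 2 as higher (7.14%, background 9.05%). Without array 2 it was 12 and 0, against 397 and 148 of all 21789 probe sets. Chac1, Slc6a9 (-0.35), Slc7a1 (-0.31) and Trib3 (-0.24) were among the lower ones, and their differences to DMSO were -0.05, -0.02, 0.02 and 0.06. For Chac1 penicillamine (9.05 ± 0.09) and DMSO (9.10 ± 0.14) were the lowest of the 20 groups and did not differ beyond their spread, while loratadine reached 10.66 ± 0.12.

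Against the 18 compounds 2 of the 20 zinc genes passed as higher and 0 as lower (10% higher, background 9.05%). Of the 15 iron genes 2 passed as higher and 2 as lower (13.3% each, background 9.05% higher and 2.44% lower). Slc39a10 was higher than the mean of the 18 compounds by 0.46 (limma, adjusted p = 3.28e-10), and as deposited its 3 penicillamine arrays lay above all 57 other arrays. So did 18 other probe sets (19 in all, 0.0872%), among them Arfgef2, Tmem38b and Ep300. Cisd1, an iron-sulfur protein of the outer mitochondrial membrane, was higher by 0.59 (adjusted p = 0.000127), and Slc40a1, the iron exporter ferroportin, by 0.31 (adjusted p = 0.00027). Against DMSO, Cisd1 differed by 0.30 and Slc40a1 by 0.10 (unadjusted p = 0.0394 and 0.193 by limma). Without array 2 Cisd1 still passed, at 0.54, whereas 0 of the 15 iron genes passed as higher, Slc40a1 included. Of 13 genes of the primed epiblast 10 passed as higher (76.9%, background 9.05%), and 8 after quantile normalisation (61.5%, background 4.03%). Without array 2 it was 3, against 148 of all 21789 probe sets. The list median was then 0.138, against 0.0011 for all. Otx2 was higher by 0.32 and Grhl2 by 0.30, but against DMSO 0 of the 13 had an unadjusted p under 0.05 as deposited, and Lef1 was lower at that level after quantile normalisation.

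Several other lists had members higher than DMSO, and their counts dropped without array 2. As for the earlier lists, the share of all probe sets with an unadjusted p under 0.05 is not given without array 2. These drops therefore have no background. Of 30 genes of collagen and its crosslinking 9 had an unadjusted p under 0.05, all higher (30%, background 7.50%), among them Lamc1 (0.23), Lama1 (0.17) and Col5a2 (0.17). After quantile normalisation it was 4 (13.3%, background 2.91%) and without array 2 it was 0. Of 20 cholesterol genes 7 were higher (35%, background 7.50%) and 0 lower, led by Cyp51 (0.26 ± 0.082), Hmgcs1 (0.16) and Srebf2 (0.16). It was 3 after quantile normalisation (15%, background 2.91%) and 0 without array 2. Of 21 mesoderm and endoderm genes 5 were higher (23.8%), led by Cdx2 (0.24) and Lefty1 (0.22). Of 23 G2 and mitosis genes it was 5 (21.7%) and of 25 hypoxia genes 4 (16%), against the same background of 7.50%. Without array 2 each of these counts was 0. Of 24 genes of the endoplasmic reticulum stress response 5 were higher (20.8%, background 7.50%) and 0 lower. Hyou1 read 10.61, 10.63 and 10.68 against 10.77, 10.84 and 10.71, and Pdia3 12.37, 12.25 and 12.35 against 12.59, 12.49 and 12.45. In both genes the groups did not overlap, and in Pdia3 array 1 was the highest. The chaperone Hspa5 differed by -0.05 (unadjusted p = 0.301 by limma) and the stress factor Ddit3 by -0.01 (unadjusted p = 0.941). Without array 2, 2 of the 24 were higher.

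In the heat shock list of 18 genes, Dnajb1 (0.21) and Chordc1 (0.21) were higher and Hmox1 lower against DMSO at an unadjusted p under 0.05. These were 11.1% and 5.56% of the list, against 7.50% and 0.991% of all probe sets. Against the 18 compounds 5 of the 18 passed as higher (27.8%, background 9.05%) and 2 as lower (11.1%, background 2.44%). After quantile normalisation it was 3 and 4 (background 4.03% and 5.58%). Without array 2 it was 1 and 2, against 148 and 397 of all 21789 probe sets. The small heat shock protein Hspb6 lay 0.45 below the mean of the 18 compounds (limma, adjusted p = 5.08e-08), but differed from DMSO by only -0.083 (unadjusted p = 0.244 by limma). Of 22 p53 targets 4 were higher (18.2%, background 7.50%), and 1 after quantile normalisation (4.55%, background 2.91%), led by Zmat3. It read 10.13, 10.20 and 10.28 with DMSO and 10.36, 10.55 and 10.35 with penicillamine, without overlap (0.22 ± 0.063, limma, unadjusted p = 0.00098). Without array 2, 1 of the 22 was higher. Of 27 immediate early genes 4 were higher (14.8%, background 7.50%), among them Fosb (0.19). It was 2 after quantile normalisation (7.41%, background 2.91%) and 0 without array 2. Of 31 genes of oxidative phosphorylation 2 were higher, Uqcrb (0.18) and Uqcrfs1 (0.15), a share of 6.45% that is below the background of 7.50%. Of 16 neural and ectoderm genes 1 was higher, Neurod1 (0.21), also below that background (6.25%). Of 25 genes of the G1 and S phases 1 was lower, Mcm4 (-0.16; 4%, background 0.991%). Of 20 ribosomal protein genes Rpl23 was higher (0.09) and Rps9 lower (-0.30), 5% each, against 7.50% and 0.991% of all probe sets. The values of Mcm4 (11.64, 11.22 and 11.68) and Rps9 (12.66, 11.98 and 12.79) with penicillamine were low on array 2 and near the DMSO arrays on the other 2.

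Markers of the labelled cell type were present. The mean log2 signal over 27 stem cell markers was 11.44, 11.39 and 11.45 with DMSO and 11.38, 11.54 and 11.41 with penicillamine. Pou5f1, the central pluripotency factor, read 12.88, 12.87 and 12.88 with DMSO and 12.85, 12.09 and 12.86 with penicillamine. Arrays 1 and 3 lay just below the DMSO arrays and array 2 far below (difference -0.28 ± 0.088, limma, adjusted p = 0.424). Of 24 fibroblast markers 6 were higher against DMSO at an unadjusted p under 0.05 (25%, background 7.50%) and 0 lower. Of these markers 2 were higher after quantile normalisation (8.33%, background 2.91%) and 0 without array 2. Their mean signal was 8.86, 8.91 and 8.86 with DMSO and 8.84, 9.08 and 8.93 with penicillamine. Arrays 2 and 3 lay above all DMSO arrays and array 1 below. Pdgfrb, a receptor of stromal cells, was higher by 0.20 (limma, unadjusted p = 0.00218, and 0.00735 after quantile normalisation) and the collagen gene Col1a1 by 0.19 (unadjusted p = 0.0255, and 0.126 after quantile normalisation). Lum differed by 0.15, Dcn by 0.03, Thy1 by 0.03 and Postn by -0.12, each with an unadjusted p above 0.05. The mean over 22 trophoblast and extraembryonic endoderm markers was 8.44, 8.51 and 8.42 against 8.45, 8.66 and 8.47. After quantile normalisation the fibroblast mean on arrays 2 and 3 (8.95 and 8.93) was still above the DMSO arrays (at most 8.91), while array 1 (8.84) was below them. The part of these markers in the results on collagen and mesoderm genes was not tested.

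Array 2 also departed in single genes. After the median shift of each array was taken off, array 2 lay more than 0.5 below the mean of the other 2 penicillamine arrays in 224 probe sets and more than 0.5 above in 5. For each of the other 5 arrays these counts were between 3 and 50. Among the 12 lower and 12 higher probe sets with the smallest p against DMSO whose groups did not overlap on either scale, 4 of the lower ones kept less than 0.5 of their difference without array 2. They were the nucleolar deubiquitinase Usp36 (-0.24 to -0.089), the myristoyltransferase Nmt1 (-0.22 to -0.047), the proteasome subunit Psmd14 (-0.20 to -0.086) and the actin factor Wdr1 (-0.22 to -0.039). The other 8 lower and all 12 higher ones kept an unadjusted p under 0.05 without that array. All were picked by p and by non-overlap of these same arrays. Keeping such a p is therefore partly fixed by that choice and is no independent support.

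**Figure D5:**
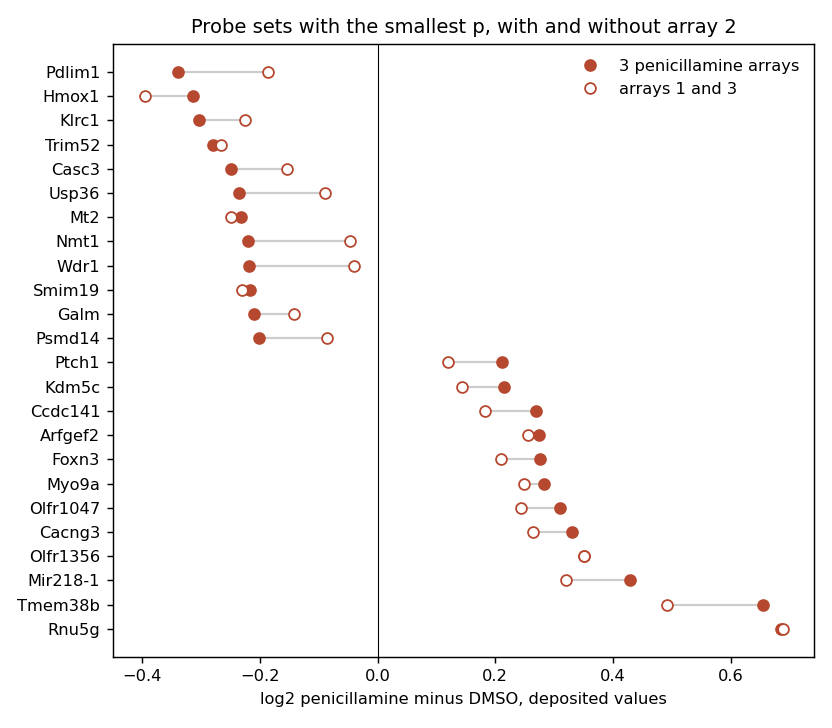
Log2 difference, penicillamine minus DMSO, of the 24 probe sets with the smallest p in each direction, with all 3 penicillamine arrays (filled) and with arrays 1 and 3 (open; deposited values). Hmox1 moves away from 0 without array 2, from -0.31 to -0.40, Rnu5g stays at 0.69, and Nmt1 and Wdr1 shrink to -0.047 and -0.039.

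Rnu5g, a gene for the U5 small nuclear RNA of the spliceosome, had the smallest p among the higher ones, at a faint signal. It read 4.51, 4.61 and 4.37 with DMSO and 5.17, 5.18 and 5.19 with penicillamine. The 3 penicillamine arrays were nearly equal and all above DMSO (difference 0.69 ± 0.150, limma, adjusted p = 0.301), and the difference without array 2 was again 0.69. Tmem38b, a cation channel of the endoplasmic reticulum, read 7.36, 7.15 and 7.66 against 7.81, 8.37 and 7.96. Its groups did not overlap, though each varied widely (0.66 ± 0.148, and 0.49 without array 2). It was also the largest difference to the mean of the 18 compounds, 1.07 (limma, adjusted p = 2.56e-09), but DMSO was second highest of the 20 groups at 7.39 ± 0.255. Arfgef2, an exchange factor for ARF GTPases at the Golgi, read 9.53, 9.63 and 9.66 against 9.79, 9.92 and 9.94. The groups were well apart (0.27 ± 0.070, and 0.26 without array 2).

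Mir218-1, the gene of a microRNA precursor within Slit2, read 6.67, 6.71 and 6.91 with DMSO and 7.06, 7.41 and 7.11 with penicillamine. The groups did not overlap (0.43 ± 0.101, limma, adjusted p = 0.320) and the difference without array 2 was 0.32. The probe set reads transcripts of the locus and not the mature microRNAs, which are shown for identity with the seed, bases 2 to 8, in capitals (RefSeq, GRCm38.p6).
mmu-miR-218-5p, chr5:48223966-48223986, plus strand: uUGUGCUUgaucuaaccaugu
mmu-miR-218-1-3p, chr5:48224005-48224026, plus strand: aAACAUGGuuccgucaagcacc
The other higher ones were the Hedgehog receptor Ptch1 (0.21), the forkhead factor Foxn3 (0.28), the myosin Myo9a (0.28), the histone demethylase Kdm5c (0.22), Ccdc141 (0.27), the receptor-associated Cacng3 (0.33) and the olfactory receptors Olfr1356 (0.35) and Olfr1047 (0.31). The last 3 had faint signals, between 3.37 and 6.00 on all 6 arrays. Lower besides Hmox1 and Mt2 were the cytoskeletal adaptor Pdlim1 (-0.34), the exon junction protein Casc3 (-0.25), Smim19 (-0.22), the faint Klrc1 (-0.30, signals between 4.53 and 5.08), Trim52 (-0.28) and the galactose mutarotase Galm (-0.21). Smim19 read 9.04, 9.15 and 9.15 against 8.86, 8.92 and 8.90, and its difference was -0.23 without array 2.

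The chromatin remodeller gene Chd7 is read by 30 probe sets, which share 1 gene and are not independent. Of these 29 were above DMSO as deposited, as were 15827 of all 21789 probe sets. Higher at an unadjusted p under 0.05 were 22 as deposited (background 7.50%) and 12 after quantile normalisation (background 2.91%). After adjustment 0 passed. The median difference was 0.243 as deposited, 0.184 after quantile normalisation and 0.202 without array 2. Against the mean of the 18 compounds 27 of the 30 passed as higher (background 9.05%), with a median of 0.364. After quantile normalisation 24 did (background 4.03%). Among the largest differences to the 18 compounds were further the small RNA genes Rmrp (0.56) and Snora74a (0.44). Their differences to DMSO were 0.20 and 0.16 (unadjusted p = 0.227 and 0.108 by limma). On the lower side were the triadin gene Trdn (-0.78), the protein degradation factor Ufd1 (-0.51), the profilin Pfn2 (-0.43) and the lysosomal nuclease Dnase2a (-0.36). Against DMSO they differed by -0.92, -0.36, -0.23 and -0.13, in that order. The Trdn probe set was faint and uneven, and no other Trdn probe set passed. It read 5.49, 5.46 and 5.07 with DMSO and 4.54, 3.79 and 4.92 with penicillamine. On Ufd1 penicillamine array 2 read 9.46 while the other 2 read 10.11 and 9.99.

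Thalidomide, another compound classed as a teratogen, was given at 0.35 mM, so the 2 compounds differ in dose as well as in kind. Between them 95 probe sets passed (0.436%), 62 higher with penicillamine (0.285%) and 33 lower (0.151%). After quantile normalisation it was 110 (0.505%), 37 higher (0.170%) and 73 lower (0.335%), so the share of higher calls went from 65.3% to 33.6%. The count rested on single arrays: it was 1023, 10 and 290 without penicillamine array 1, 2 and 3, 56 without DMSO array 1, and 3, 1 and 40 without thalidomide array 1, 2 and 3. A model of the groups compared alone gave 0. In the same direction in the deposited values, after quantile normalisation and without array 2 were 1 higher probe set, Arfgef2, and 6 lower ones, Hmox1, Nqo1, Serpinb9b, Cd68, Unkl and Mt2.

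Hmox1 with thalidomide lay between 11.05 and 11.12, above the 3 penicillamine arrays and above the DMSO arrays (difference -0.47 ± 0.065, limma, adjusted p = 7.58e-05). Mt2 with thalidomide lay between 13.59 and 13.69, above every penicillamine array (-0.26 ± 0.053, limma, adjusted p = 0.0225). Gclm with thalidomide lay between 11.92 and 12.01, also above every penicillamine array (-0.32 ± 0.064, limma, adjusted p = 0.0225). Nqo1 was lower than with thalidomide by 0.40 (limma, adjusted p = 0.0146). These 3 NRF2 targets, Hmox1, Gclm and Nqo1, passed out of 25 (background 0.151% lower), with 0 higher and a list median of -0.118 against 0.066 for all genes. After quantile normalisation 6 passed (background 0.335% lower). Without array 2 it was 3, against 9 of all 21789 probe sets, with Hmox1 and Nqo1 among them but not Gclm. Mt1 differed by -0.29 and did not pass (adjusted p = 0.0817). Slc39a10 was higher than with thalidomide by 0.26 (limma, adjusted p = 0.0374), as were Tmem38b by 0.84 and Rnu5g by 0.64. Asb7 and Josd1, with the largest lower differences among the probe sets that passed, -0.69 and -0.57, read 6.78 and 7.83 on penicillamine array 2, against 7.87 and 8.97 on array 1 and 8.03 and 9.11 on array 3.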

How the data were processed

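The authors deposited log2 signals for 35556 probe sets on 60 Affymetrix arrays, made with RMA per the submitters' processing notes; its options and the genome build are not stated there or in the labels. Of these probe sets 23410 are annotated, 21789 with 1 gene symbol and 1621 with several, and 12146 have no entry. Array data have no read depth; 3 arrays per group limit the precision. The deposited values were used as they are in a linear model with a mean for each of 20 groups (R 4.3.3 with limma 3.58.1 and its moderated statistics, 40 residual and 7.31 prior degrees of freedom), with Benjamini-Hochberg adjustment over 21789 probe sets. A probe set passed at an adjusted p under 0.05. All p-values are from limma, and the script was tested on simulated data. Gene lists, 26 in all, use the brightest probe set of each gene. Some genes are in more than 1 list, Hmox1, Gclm and Chac1 among them. The lists are described by counts and medians, without a test. The alternatives were quantile normalisation, centring each array on its median, leaving out dim probe sets, testing all probe sets, trend and robust eBayes, the interquartile range as a covariate, models of the compared arrays alone, and leaving out each array. Named genes are the 12 in each direction with the smallest p against DMSO whose groups do not overlap on either scale (15 higher and 6 lower predicted genes left out), the 8 largest called differences in the other contrasts, 20 metal and thiol genes, and the leading members of each list. The members, lists and tests were chosen with earlier results of these data known. Promoter and microRNA sequences are RefSeq's (GRCm38.p6).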

Additional observations from a re-analysis of the deposited data

Results flagged for a closer look

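Penicillamine and thalidomide differed by the test between them, at their different doses, for 22 probe sets named by the rule (limma, adjusted p under 0.05 as deposited; differences are penicillamine minus thalidomide on the log2 scale). Lower with penicillamine were Hmox1 (-0.47), Mt2 (-0.26) and Gclm (-0.32), for which the differences to DMSO were -0.31, -0.23 and -0.20 with penicillamine and 0.15, 0.03 and 0.12 with thalidomide. Further lower were Pdlim1 (-0.38), Nmt1 (-0.29), Asb7 (-0.69), Josd1 (-0.57), Ufd1 (-0.51), Tbce (-0.48), Zbtb6 (-0.42), and the kinetochore genes Cenpk (-0.45) and Cenpw (-0.44). Higher with penicillamine were Tmem38b (0.84), Rnu5g (0.64), Mir218-1 (0.41), Arfgef2 (0.41), Myo9a (0.34), Ptch1 (0.25), Olfr1441 (0.42) and 3 probe sets of Chd7 (0.42, 0.41 and 0.40). After quantile normalisation the adjusted p was 0.107 for Mir218-1 and 0.0709 for Olfr1441, and under 0.05 for the other 20. Of the 22, Arfgef2, Hmox1 and Mt2 passed in the same direction in the deposited values, after quantile normalisation and without penicillamine array 2.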

How the results depend on the processing

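Precision was limited by 3 arrays per group and by penicillamine array 2, so small differences were not detectable. No paired analysis was possible because the labels give no replicate numbers. Counts of called probe sets against DMSO (0) became 2 after quantile normalisation, after centring and after quantile normalisation with array 2 left out, 1 with the compared arrays alone, and 0 to 24 leaving out single arrays. List genes called, and the 20 metal and thiol genes called, went from 0 to 2 after quantile normalisation, after centring and after quantile normalisation with array 2 left out, and were 0 to 1 leaving out single arrays. Against the 18 compounds (2503) the count was 1362 after centring, 731 after quantile normalisation with array 2 left out, and 545 to 3383 leaving out single arrays; against the 8 compounds (2505) it was 1486, 972 and 685 to 3142. Against thalidomide (95) it was 201 without dim probe sets, 397 with the interquartile range as a covariate, 0 with the compared arrays alone, 16 after quantile normalisation with array 2 left out, and 1 to 1023 leaving out single arrays. Genes near 0 against DMSO changed sign: Mt3 was -0.0118 after quantile normalisation and -0.0718 with array 2 also left out, where Sod1 was -0.0017 and Ddit3 0.0124. Leaving out single arrays, Mt3 ranged from -0.0703 to 0.123, Atp7b from -0.0044 to 0.119, Mtf1 from -0.0879 to 0.0424, Hspa5 from -0.0884 to 0.0120, Ddit3 from -0.0425 to 0.0183 and Chac1 from -0.109 to 0.0247. The causes were not tested. Hmox1, Mt2, Mt1, Gclm and Rnu5g kept their direction under all alternatives that tested them.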
